A study of Arabidopsis thaliana with 32 samples.

Results

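The genes described here encode the nuclear part of the chloroplast NDH complex and of the PGR5 route, the machineries of cyclic electron flow around photosystem I (PSI). They were taken by identifier from a fixed list of 31 genes, of 21525 genes in the table: 18 NDH subunits, 8 NDH assembly factors, 2 RNA factors for plastid ndh transcripts, and PGR5, PGRL1A and PGRL1B. The list was chosen with earlier results of these data known. RNA was sequenced from the seventh leaf of wild-type Col-0 Arabidopsis thaliana, raised in short days. For 3 h the plants received either the PSI photoinhibition treatment (PSI-PI), in which dim red light with brief flashes of strong white light alternated with growth light, or growth light alone (GL). Each light treatment was given at 0, 100, 400 and 1000 ppm CO2 in a closed chamber, with 4 leaf samples in each of the 8 groups (32 in all). The groups at 0 ppm PSI-PI, 0 ppm GL, 100 ppm PSI-PI, 100 ppm GL, 400 ppm PSI-PI, 400 ppm GL, 1000 ppm PSI-PI and 1000 ppm GL differ in nothing else that the labels name, and no mutant, transgene or chemical was used. The study calls the samples biological replicates, and which chamber run each plant came from is not given in the sources used here.

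In linear electron flow, electrons pass from water through photosystem II, the cytochrome b6f complex and PSI to ferredoxin and NADP+. In cyclic flow they return from ferredoxin to the plastoquinone pool, so that a proton gradient and ATP are made without NADPH. The main route in angiosperms needs PGR5 and its partners PGRL1A and PGRL1B, and the other uses NDH, a multi-subunit thylakoid complex that takes electrons from ferredoxin and docks to PSI. Part of NDH is encoded in the plastid and the rest, with the factors that build it, in the nucleus.

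Values are the normalized counts that the authors deposited, whose totals were 18494378 to 31211055 per leaf, and 42.9 was the lowest value of any of the 31 genes (CRR4). The labelled tissue was checked against marker genes. The mesophyll markers RBCS1A, LHCB3 and CA1 had at least 7245.5 normalized counts in every leaf, while the flower markers AG, AP3 and PI had at most 38.07 and PI was at 0 in 16 leaves, and the 3 root markers were not among the rows. The replicate spread was uneven: the median SD of the 31 genes within a group, on the log2 scale, was 0.272 and 0.254 in PSI-PI and GL leaves at 0 ppm, 0.094 and 0.114 at 100 ppm, 0.156 and 0.134 at 400 ppm, and 0.238 and 0.305 at 1000 ppm.

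The 31 genes were spread over the 5 nuclear chromosomes, with 8, 6, 3, 6 and 8 of them on chromosomes 1 to 5. All 31 were found by locus in the RefSeq annotation of assembly TAIR10.1. Since most of them moved together under PSI-PI, the 250 bases upstream of each annotated gene start were searched on both strands for 5 short promoter motifs, where capitals in the sequences printed here mark every match. The light-related G-box (CACGTG) was in 3 of the 31 windows (9.68%), against 6.49% of the windows of all 27443 nuclear protein-coding genes. The I-box (GATAAG) was in 5 (16.1%, against 12.3%) and the site II element (TGGGCC) in 8 (25.8%, against 13.7%). The CCAAT box (CCAAT) was in 18 (58.1%, against 46.0%), and the telo box (AAACCCTA) was in none of the 31 and in 4.49% of all windows. A match is only a run of letters, and 16 of the 31 windows also held part of a neighbouring gene.

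Windows without a neighbouring gene are printed 5′ to 3′ on the gene's own strand (RefSeq, TAIR10.1) for PnsB3, whose RNA fell most at 0 ppm CO2, for CRR7 and for PGR5. CRR7 was called for a smaller PSI-PI response at 0 than at 400 ppm CO2, a call lost in 6 of 16 fits with 1 leaf left out. PnsB3 lies at chr3:5508415-5508664 (minus strand), CRR7 at chr5:15702828-15703077 (plus strand) and PGR5 at chr2:2081860-2082109 (minus strand), which are the coordinates of the windows. The PnsB3 window held a CCAAT box on each strand, the one nearer the gene start sharing 1 base with an I-box, the CRR7 window a site II element on the opposite strand close to the gene start, and the PGR5 window none of the 5.
PnsB3: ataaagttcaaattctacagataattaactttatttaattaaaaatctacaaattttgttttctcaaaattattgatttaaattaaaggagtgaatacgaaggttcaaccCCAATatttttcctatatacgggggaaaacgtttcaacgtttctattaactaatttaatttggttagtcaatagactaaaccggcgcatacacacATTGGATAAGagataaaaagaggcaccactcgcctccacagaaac
CRR7: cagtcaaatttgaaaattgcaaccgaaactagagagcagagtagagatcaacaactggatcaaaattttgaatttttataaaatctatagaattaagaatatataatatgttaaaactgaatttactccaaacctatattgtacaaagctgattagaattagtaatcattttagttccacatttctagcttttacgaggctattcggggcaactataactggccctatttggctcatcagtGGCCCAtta
PGR5: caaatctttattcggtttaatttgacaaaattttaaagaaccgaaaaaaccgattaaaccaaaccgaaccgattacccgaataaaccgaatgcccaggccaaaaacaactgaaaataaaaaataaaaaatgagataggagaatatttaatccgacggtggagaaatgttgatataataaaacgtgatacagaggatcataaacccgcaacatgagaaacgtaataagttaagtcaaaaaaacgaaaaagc

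Levels of different genes were compared per length, as mean normalized counts per kb of the longest RefSeq transcript at 400 ppm CO2. PGRL1A (AT4G22890) was the most abundant of the 31 genes, with 11750.0 per kb in PSI-PI and 8338 in GL leaves, followed by NdhL with 10673 and 6100.0. Its paralog PGRL1B (AT4G11960) had 1310.0 and 827, and PGR5 itself 3547 and 1934. The lowest were the RNA factors CRR2, with 175 and 156, and CRR4, with 76 and 37 per kb. How reads shared by the PGRL1 paralogs were divided by the authors' quantification was not tested.

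Under PSI-PI, 18 to 28 of the 31 genes rose at a CO2 level, and none fell. A gene was called changed when its adjusted p (limma on log2 of the normalized count plus 1, all 32 leaves in 1 model, Benjamini-Hochberg over 21469 genes) was under 0.05. PSI-PI leaves had 21 of 31 genes higher than GL leaves at 0 ppm, 18 at 100 ppm, 28 at 400 ppm and 23 at 1000 ppm, while 4.51%, 6.64%, 13.8% and 6.89% of all genes were called higher at these levels. None of the 31 was called lower at any level, also none at an unadjusted p under 0.05, against 2.53%, 3.13%, 11.0% and 3.57% of all genes called lower. The median log2 fold change of the 31 genes was 0.59, 0.55, 0.84 and 0.63 at 0, 100, 400 and 1000 ppm, where that of all genes tested was within 0.033 of 0. Averaged over the CO2 levels, 29 of 31 rose (background 18.8%), with a median of 0.69. Because the 31 genes were chosen with earlier results of these data known, these counts beside the shares of all genes are not an independent test. In whole-leaf RNA, a change in the share of a cell type and a change in RNA per cell cannot be told apart.

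The changes were moderate. A log2 fold change of at least 1 was reached, together with the test, by 1, 0, 10 and 1 of the 31 genes at 0, 100, 400 and 1000 ppm, against 1.02%, 1.27%, 3.28% and 1.86% of all genes, and by 2 genes, NdhM and PnsL3, in the average (background 1.37%). All 4 PSI-PI leaves lay above all 4 GL leaves for 16, 24, 29 and 17 genes, against 4.86%, 12.0%, 17.8% and 9.11% of all genes. The genes called higher at all 4 CO2 levels were 15: NdhM (AT4G37925), NdhN (AT5G58260) and NdhO (AT1G74880) of subcomplex A, PnsB2 (AT1G64770) and PnsB3 (AT3G16250) of subcomplex B, PnsL1 (AT2G39470), PnsL2 (AT1G14150), PnsL3 (AT3G01440) and PnsL4 (AT4G39710) of the lumenal subcomplex, NdhT (AT4G09350) and NdhV (AT2G04039) of the ferredoxin-binding side, the assembly factors CRR6 (AT2G47910), CRR7 (AT5G39210) and CRR42 (AT5G20935), and PGR5 (AT2G05620). At 3 levels the calls covered NdhU (AT5G21430), CRR1 (AT5G52100), CRR3 (AT2G01590), CRR4 (AT2G45350) and PGRL1A (AT4G22890), at 2 levels NdhL (AT1G70760), PnsB4 (AT1G18730), NdhS (AT4G23890), NDF5 (AT1G55370), PAM68L (AT5G52780) and PGRL1B (AT4G11960), at 1 level PnsB1 (AT1G15980), PnsB5 (AT5G43750) and CRR41 (AT1G51100), and at no level PnsL5 (AT5G13120) and CRR2 (AT3G46790). These lists hold for the model of all leaves. In a fit of that contrast's own leaves none of the 31 passed at 0 ppm. PnsB3 lost its 100 ppm call whichever leaf of that contrast was left out.

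At 0 ppm the count depended on the model and on 1 leaf. Without 0 ppm GL replicate 1, 12 genes were called, and when the 8 leaves of that contrast were fitted alone none of the 31 and 32 of all genes passed. The 0 ppm light calls given below for PGR5, PGRL1A, NdhM, PnsB2, PnsL2, NdhT, CRR7 and PnsB3 were thus lost in that fit (adjusted p = 0.103 to 0.416). At 1000 ppm the fit of its own 8 leaves called 10 genes, against 23 and 29 at 100 and 400 ppm. At 100 ppm, 12 to 15 genes were called whichever single leaf was left out, and quantile normalization called 10. The mesophyll markers did not move as 1 group. In the average over CO2 levels RBCS1A rose (0.52 ± 0.16 SE, adjusted p = 0.0143), as did CA1 (1.15 ± 0.22 SE, adjusted p = 1.42e-04). LHCB3 fell in that average (-0.39 ± 0.15 SE, adjusted p = 0.0385). RBCS1A had 0.566, 0.585, 0.333 and 0.58 at 0, 100, 400 and 1000 ppm and passed at no single level (adjusted p = 0.291 to 0.51). LHCB3 fell at 400 ppm (-1.24 ± 0.29 SE, adjusted p = 0.00248) and was lower in all PSI-PI leaves also at 100 ppm (mean 96958, against 127351 in GL, adjusted p = 0.454). CA1 was higher in all PSI-PI leaves at both levels, by 1.03 ± 0.45 (SE, adjusted p = 0.155) at 100 ppm and 0.95 ± 0.45 (SE, adjusted p = 0.122) at 400 ppm, and it rose at 0 ppm (mean 59075, against 19336 in GL, adjusted p = 0.0381). The mesophyll sum, most of it RBCS1A, was 203578 to 468175 in PSI-PI leaves against 129099 to 227588 in GL leaves at 0 ppm, 693934 to 1037145 against 532847 to 667099.6 at 100 ppm, 455129 to 731930.5 against 479081 to 575016 at 400 ppm and 364612 to 672243 against 212171 to 517201 at 1000 ppm, overlapping at all levels but 100 ppm. The phloem sum, most of it SUC2, was lower in every PSI-PI leaf at 400 ppm (3332.2 to 3664.3, against 3801.7 to 4125.6) and higher in every PSI-PI leaf at 100 ppm (4339.9 to 4774.9, against 3660.4 to 4335.3). SUC2 itself passed the test at neither level (-0.26 ± 0.14 SE, adjusted p = 0.197 at 400 ppm and 0.195 ± 0.14 SE, adjusted p = 0.439 at 100 ppm). APL rose at 400 ppm (0.47 ± 0.14 SE, adjusted p = 0.0116) and in the average (0.345 ± 0.07 SE, adjusted p = 1.97e-04), and the guard cell sums overlapped at every level. The part of these markers in the result was not tested.

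**Figure D1:**
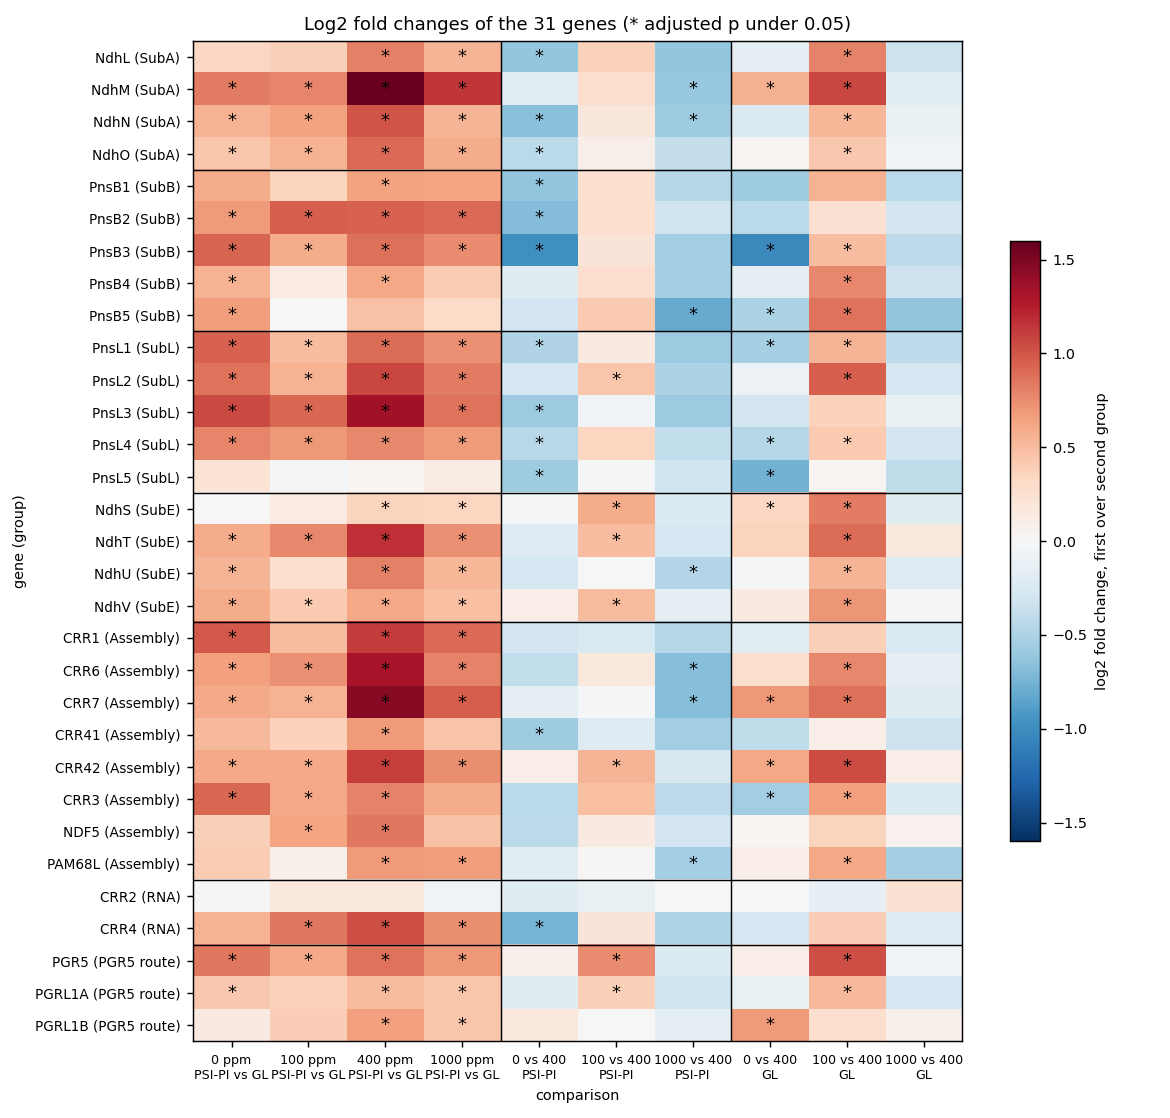
Log2 fold changes of the 31 genes (rows, grouped by role) in the 10 comparisons (columns), the first-named group over the second, with an asterisk where the adjusted p was under 0.05. The 4 PSI-PI against GL columns on the left are red for most rows, with 28 of 31 asterisks at 400 ppm, and the PnsL5 and CRR2 rows hold none there.

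PGR5, the small stromal protein that gives the route its name, rose under PSI-PI at each of the 4 CO2 levels. PGR5 had 6129.5, 3684, 3387 and 4167 normalized counts in the 0 ppm PSI-PI leaves, against 2052, 2267, 2230.5 and 2919 in the 0 ppm GL leaves. It had 6431, 7017, 7154 and 6493 normalized counts in the 100 ppm PSI-PI leaves, against 5184, 4492, 4082 and 4169 in the 100 ppm GL leaves. The PSI-PI leaves were above all GL leaves at both of these levels, and the 100 ppm leaves were the highest of either light treatment. At 400 ppm PGR5 had 3802, 3648, 4022 and 4574 normalized counts in the 400 ppm PSI-PI leaves, against 2009, 2236, 2176 and 2329 in the 400 ppm GL leaves. PGR5 at 1000 ppm had 3299, 2909, 3481 and 4137 normalized counts in the 1000 ppm PSI-PI leaves, against 2436, 1955, 2234 and 1869.5 in the 1000 ppm GL leaves. No leaf of the PSI-PI groups overlapped the GL range here either. On the log2 scale the PSI-PI leaves exceeded the GL leaves by 0.85 ± 0.14 (SE, adjusted p = 4.58e-04) at 0 ppm, 0.60 ± 0.14 (SE, adjusted p = 0.0069) at 100 ppm, 0.87 ± 0.14 (SE, adjusted p = 4.40e-05) at 400 ppm and 0.70 ± 0.14 (SE, adjusted p = 0.00145) at 1000 ppm, and 0.76 in the average, a fold of 1.69. With quantile normalization the difference at 100 ppm was 0.40 and missed the threshold (adjusted p = 0.0533). In a fit of that contrast's own leaves the call at 0 ppm was lost (adjusted p = 0.17). Against 400 ppm CO2, PGR5 also rose at 100 ppm in both lights, by 0.76 ± 0.14 (SE, adjusted p = 3.73e-04) in PSI-PI and 1.03 ± 0.14 (SE, adjusted p = 3.06e-06) in GL leaves. Its values at 0 and 1000 ppm gave log2 fold changes of 0.08 and -0.22 in PSI-PI leaves and 0.10 and -0.05 in GL leaves (adjusted p = 0.725, 0.46, 0.609 and 0.947).

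PGRL1A and PGRL1B, thylakoid membrane proteins that hold PGR5 at the membrane, averaged 0.43 and 0.41 higher in PSI-PI than in GL leaves on the log2 scale, beside 0.76 for PGR5, which was not tested as a difference between genes. PGRL1A had 15405, 13919, 11801 and 18504 normalized counts in the 0 ppm PSI-PI leaves, against 10118, 9859.9, 10873 and 13112 in the 0 ppm GL leaves. It had 22147, 22524, 20732 and 22316 normalized counts in the 100 ppm PSI-PI leaves, against 15239, 16725, 17774 and 18559 in the 100 ppm GL leaves. The lights overlapped at 0 ppm and were apart at 100 ppm. PGRL1A had 15897, 16354, 16886 and 18308 normalized counts in the 400 ppm PSI-PI leaves, against 9899.7, 12763, 12736 and 12461 in the 400 ppm GL leaves. At 1000 ppm it had 12015, 12253, 13444 and 16618 normalized counts in the 1000 ppm PSI-PI leaves, against 10288, 10147, 9596 and 9653 in the 1000 ppm GL leaves. These groups did not overlap. It rose by 0.43 ± 0.13 (SE, adjusted p = 0.0399) at 0 ppm, 0.50 ± 0.13 (SE, adjusted p = 0.00487) at 400 ppm and 0.44 ± 0.13 (SE, adjusted p = 0.0257) at 1000 ppm on the log2 scale, and its difference at 100 ppm was 0.36 ± 0.13 (SE, adjusted p = 0.0734). The call at 0 ppm was lost without 0 ppm PSI-PI replicate 1, 2 or 4 or 0 ppm GL replicate 1, 2 or 3 (adjusted p = 0.0531 to 0.128), and that at 1000 ppm without 1000 ppm PSI-PI replicate 3 or 4 or 1000 ppm GL replicate 3 or 4 (adjusted p = 0.0596 to 0.116). Against 400 ppm, PGRL1A rose at 100 ppm in PSI-PI leaves (0.38 ± 0.13 SE, adjusted p = 0.0334), a call lost without 100 ppm PSI-PI replicate 1, 2 or 4 or 400 ppm PSI-PI replicate 1, 2 or 3 (adjusted p = 0.0621 to 0.0846), and in GL leaves (0.52 ± 0.13 SE, adjusted p = 0.00259). With quantile normalization, PGRL1A passed the test in none of these 5 comparisons (adjusted p = 0.152 to 0.699). Its light calls at 0 and 1000 ppm were lost in fits of each contrast's own leaves (adjusted p = 0.416 and 0.0776).

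PGRL1B had its highest GL mean at 0 ppm CO2, whereas PGRL1A had its highest at 100 ppm. PGRL1B had 2668, 2156, 1927 and 2013 normalized counts in the 0 ppm PSI-PI leaves, against 1593, 2121, 2171 and 2067 in the 0 ppm GL leaves. It had 1839, 1963, 2112 and 1845 normalized counts in the 100 ppm PSI-PI leaves, against 1498, 1330.2, 1611 and 1489 in the 100 ppm GL leaves. The lights overlapped at 0 ppm but not at 100 ppm. PGRL1B had 1870.1, 2288, 1783 and 1849 normalized counts in the 400 ppm PSI-PI leaves, against 1106, 1292, 1320.5 and 1199.8 in the 400 ppm GL leaves. PGRL1B at 1000 ppm had 1639, 1737, 1802 and 1867 normalized counts in the 1000 ppm PSI-PI leaves, against 954, 1345, 1302 and 1669.8 in the 1000 ppm GL leaves. In GL leaves the values at 0 ppm lay above all those at 400 ppm. PGRL1B rose under PSI-PI at 400 ppm by 0.66 ± 0.13 (SE, adjusted p = 3.60e-04) and at 1000 ppm by 0.45 ± 0.13 (SE, adjusted p = 0.024), and the call at 1000 ppm was lost without 1000 ppm PSI-PI replicate 2, 3 or 4 or 1000 ppm GL replicate 1 or 3 (adjusted p = 0.0511 to 0.117), with quantile normalization (adjusted p = 0.116) and in a fit of its own leaves (adjusted p = 0.126). Its differences at 0 and 100 ppm were 0.14 ± 0.13 (SE, adjusted p = 0.564) and 0.39 ± 0.13 (SE, adjusted p = 0.053). It rose at 0 ppm GL against 400 ppm GL by 0.69 ± 0.13 (SE, adjusted p = 2.15e-04), where PGRL1A had -0.12 ± 0.13 (SE, adjusted p = 0.488). The difference between the paralogs was not tested.

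Subcomplex A is the hydrophilic arm of NDH and holds the nuclear subunits NdhL (AT1G70760), NdhM (AT4G37925), NdhN (AT5G58260) and NdhO (AT1G74880). All 4 rose under PSI-PI at 400 and 1000 ppm and 3 of 4 at 0 and 100 ppm, the exception being NdhL (0.33 ± 0.17 SE, adjusted p = 0.267 and 0.38 ± 0.17 SE, adjusted p = 0.176). The median log2 fold change was 0.50, 0.60, 0.95 and 0.57 at 0, 100, 400 and 1000 ppm. NdhM had 7044, 5673, 5686 and 6222 normalized counts in the 0 ppm PSI-PI leaves, against 2379, 3391, 4303 and 4099 in the 0 ppm GL leaves. It had 8422, 8143, 8786 and 8278 normalized counts in the 100 ppm PSI-PI leaves, against 5296, 4744, 4497 and 5028 in the 100 ppm GL leaves. NdhM had 6724, 6800.4, 6969 and 7235 normalized counts in the 400 ppm PSI-PI leaves, against 1939.6, 2601, 2356 and 2449 in the 400 ppm GL leaves. The PSI-PI and GL leaves did not overlap at any of these levels, and 3 of the 4 GL leaves at 0 ppm were above all GL leaves at 400 ppm. At 1000 ppm NdhM had 3994, 4253, 4836 and 5243 normalized counts in the 1000 ppm PSI-PI leaves, against 2359.9, 1971, 1919 and 2043 in the 1000 ppm GL leaves. The rise at 400 ppm, 1.58 ± 0.13 (SE, adjusted p = 2.12e-09), was the largest of any of the 31 genes in the 10 comparisons, and those at 0, 100 and 1000 ppm were 0.83, 0.78 and 1.14 (adjusted p = 2.60e-04, 4.12e-04 and 1.43e-06). In GL leaves NdhM rose against 400 ppm at 0 ppm (0.57 ± 0.13 SE, adjusted p = 0.00148) and at 100 ppm (1.07 ± 0.13 SE, adjusted p = 5.75e-07). In PSI-PI leaves it fell at 1000 ppm (-0.60 ± 0.13 SE, adjusted p = 0.0239), a call lost without 1000 ppm PSI-PI replicate 1, 2 or 3 or 400 ppm PSI-PI replicate 1, 3 or 4 (adjusted p = 0.0616 to 0.0994).

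Subcomplex B, which is found in land plants and faces the stroma beside the membrane arm, is made of PnsB1 (AT1G15980), PnsB2 (AT1G64770), PnsB3 (AT3G16250), PnsB4 (AT1G18730) and PnsB5 (AT5G43750). All 5 rose in the average over CO2 levels, with a median of 0.56, and 4, 2, 4 and 2 of 5 rose at 0, 100, 400 and 1000 ppm. PnsB2 had the smallest adjusted p of the 5 in that average (0.87 ± 0.09 SE, adjusted p = 1.34e-08). PnsB2 had 2772, 3366, 3447 and 4490.0 normalized counts in the 0 ppm PSI-PI leaves, against 1685, 1955, 3070.2 and 2195 in the 0 ppm GL leaves. It had 7666, 6523, 5938 and 6963 normalized counts in the 100 ppm PSI-PI leaves, against 3091, 3515, 3653 and 3647 in the 100 ppm GL leaves. The lights overlapped at 0 ppm and were apart at 100 ppm. PnsB2 had 4872, 5437, 6204 and 6003 normalized counts in the 400 ppm PSI-PI leaves, against 2163, 2915, 3268 and 3518 in the 400 ppm GL leaves. At 1000 ppm it had 3409.8, 4274, 4621 and 5972 normalized counts in the 1000 ppm PSI-PI leaves, against 3148, 2136, 2178 and 2226 in the 1000 ppm GL leaves. Its rises were 0.68, 0.96, 0.94 and 0.91 at 0, 100, 400 and 1000 ppm (adjusted p = 0.0213, 0.00116, 3.00e-04 and 0.00121), the first of which was lost without 0 ppm PSI-PI replicate 4 or 0 ppm GL replicate 1 (adjusted p = 0.0762 to 0.102). PnsB5 passed the test at 0 ppm (0.67 ± 0.20 SE, adjusted p = 0.0347), with 0.01 ± 0.20 (SE, adjusted p = 0.984), 0.47 ± 0.20 (SE, adjusted p = 0.0779) and 0.30 ± 0.20 (SE, adjusted p = 0.367) at 100, 400 and 1000 ppm, and the differences between its levels did not pass the test (adjusted p = 0.766 for 0 against 400 ppm). Its 0 ppm lights overlapped, with 4260, 2285, 1842 and 2738 normalized counts in PSI-PI and 1639, 1545, 1547 and 1975 in GL leaves. The 0 ppm call of PnsB5 was lost in a fit of that contrast's own leaves.

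PnsB3, a subunit with a predicted iron-sulfur cluster, had the largest fall of the 31 genes. PnsB3 had 1369, 1721, 1675 and 2803 normalized counts in the 0 ppm PSI-PI leaves, against 936, 878, 1003 and 1007 in the 0 ppm GL leaves. It had 4364, 4096, 3769 and 4464 normalized counts in the 100 ppm PSI-PI leaves, against 2668, 2738, 2803 and 2798 in the 100 ppm GL leaves. PnsB3 had 3829, 2783, 4006 and 3911 normalized counts in the 400 ppm PSI-PI leaves, against 1715, 1956, 1946 and 2231 in the 400 ppm GL leaves. At 400 ppm PSI-PI replicate 2 lay far below the other PSI-PI leaves, and the lights were apart at these 3 levels. At 1000 ppm PnsB3 had 2383, 1969.9, 2362 and 3313 normalized counts in the 1000 ppm PSI-PI leaves, against 2337, 1479, 1311 and 994 in the 1000 ppm GL leaves. Against 400 ppm, PnsB3 fell at 0 ppm by 0.98 in PSI-PI leaves (adjusted p = 0.00139) and by 1.03 in GL leaves (adjusted p = 2.24e-04). All 4 GL leaves at 0 ppm were below all those at 400 ppm, and the GL fold change taken back to the linear scale was 0.489. PnsB3 rose under PSI-PI by 0.93, 0.60, 0.88 and 0.76 at 0, 100, 400 and 1000 ppm (adjusted p = 0.0038, 0.0487, 0.00126 and 0.0109). The call at 100 ppm was lost without 100 ppm PSI-PI replicate 1, 2, 3 or 4 or 100 ppm GL replicate 1, 2, 3 or 4 (adjusted p = 0.0595 to 0.119), and that at 1000 ppm without 1000 ppm PSI-PI replicate 4 or 1000 ppm GL replicate 4 (adjusted p = 0.0579 to 0.0646). Its rise at 100 ppm GL against 400 ppm GL (0.49 ± 0.19 SE, adjusted p = 0.0494) was lost without 100 ppm GL replicate 1, 2, 3 or 4 or 400 ppm GL replicate 1, 2 or 3 (adjusted p = 0.0758 to 0.125). The PnsB3 calls at 100 ppm, for light and in GL leaves for CO2, were also lost with quantile normalization (adjusted p = 0.179 and 0.138) and without the variance trend (0.061 and 0.0594). Those for light at 0 and 1000 ppm were lost in fits of each contrast's own leaves (adjusted p = 0.135 and 0.125). So was the PnsB3 fall at 0 ppm in PSI-PI leaves (adjusted p = 0.0644).

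The lumenal subcomplex holds PnsL1 (AT2G39470), PnsL2 (AT1G14150), PnsL3 (AT3G01440), PnsL4 (AT4G39710) and PnsL5 (AT5G13120), of which PnsL1 is PsbP-like, PnsL2 and PnsL3 are PsbQ-like, PnsL4 is an FKBP-type immunophilin and PnsL5 a cyclophilin. The first 4 rose under PSI-PI at each CO2 level, PnsL3 most in the average (1.05, with 1.06, 0.92, 1.34 and 0.87 at 0, 100, 400 and 1000 ppm). PnsL2 had 3748, 3112, 2909 and 4257 normalized counts in the 0 ppm PSI-PI leaves, against 1744, 1615, 2102 and 2161 in the 0 ppm GL leaves. It had 6079.5, 5462, 5596 and 5870.2 normalized counts in the 100 ppm PSI-PI leaves, against 3853, 3705, 3964 and 4063 in the 100 ppm GL leaves. Both light groups were higher at 100 ppm than at 0 ppm. PnsL2 had 3966, 3683, 4516 and 4847 normalized counts in the 400 ppm PSI-PI leaves, against 1757, 2038, 2126 and 2148 in the 400 ppm GL leaves. At 1000 ppm it had 2615, 2536, 3072 and 3853 normalized counts in the 1000 ppm PSI-PI leaves, against 2097, 1639.9, 1587 and 1416 in the 1000 ppm GL leaves. The lights did not overlap at any level. Its rises under PSI-PI were 0.87 ± 0.14 (SE, adjusted p = 1.99e-04), 0.56 ± 0.14 (SE, adjusted p = 0.00828), 1.07 ± 0.14 (SE, adjusted p = 1.63e-06) and 0.84 ± 0.14 (SE, adjusted p = 1.29e-04) at 0, 100, 400 and 1000 ppm. With quantile normalization the calls at 100 ppm for light and in PSI-PI leaves for CO2 were lost (adjusted p = 0.0577 and 0.158). Against 400 ppm it rose at 100 ppm by 0.44 ± 0.14 (SE, adjusted p = 0.0192) in PSI-PI leaves, a call lost without 400 ppm PSI-PI replicate 1 or 2 (adjusted p = 0.0548 to 0.074), and by 0.95 ± 0.14 (SE, adjusted p = 4.95e-06) in GL leaves.

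PnsL5 and CRR2 were the genes with no call for light. PnsL5 averaged 0.09 ± 0.07 (SE, adjusted p = 0.351) over the CO2 levels, with a 95% interval of -0.05 to 0.23, and at 400 ppm 0.03 with -0.25 to 0.32. CRR2, a pentatricopeptide repeat protein needed to cut the transcript between rps7 and ndhB, averaged 0.06 ± 0.05 (SE, adjusted p = 0.377) with an interval of -0.04 to 0.17. At 400 ppm CRR2 had 0.17 with -0.04 to 0.38. PnsL5 was called for CO2: it fell at 0 ppm against 400 ppm by 0.57 in PSI-PI leaves (adjusted p = 0.00543) and by 0.76 in GL leaves (adjusted p = 1.75e-04). The PSI-PI leaves overlapped, 0 ppm replicate 4 (1979.3) lying above 400 ppm replicate 2 (1866.9). The PSI-PI fall of PnsL5 was lost in a fit of that contrast's own leaves.

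The ferredoxin-binding side is represented by NdhS (AT4G23890), NdhT (AT4G09350), NdhU (AT5G21430) and NdhV (AT2G04039). NdhS has an SH3-like fold and binds ferredoxin, and NdhT and NdhU are membrane proteins of the J or J-like type. All 4 rose under PSI-PI at 400 and 1000 ppm. NdhS had the smallest averaged rise (0.20 ± 0.05 SE, adjusted p = 0.00107) and NdhT the largest (0.82 ± 0.07 SE, adjusted p = 1.83e-09). NdhT had 1762, 1045, 1111 and 1204 normalized counts in the 0 ppm PSI-PI leaves, against 646, 982, 849.5 and 868 in the 0 ppm GL leaves. It had 2157, 2019, 1974 and 1989.5 normalized counts in the 100 ppm PSI-PI leaves, against 1251, 1183, 1189 and 1169 in the 100 ppm GL leaves. The lights did not overlap, although 1 PSI-PI leaf at 0 ppm was far above the others. NdhT had 1266, 1392, 1524 and 1624 normalized counts in the 400 ppm PSI-PI leaves, against 532, 615, 763 and 688 in the 400 ppm GL leaves. NdhT at 1000 ppm had 998, 1066, 1311 and 1453 normalized counts in the 1000 ppm PSI-PI leaves, against 852, 591, 657 and 792 in the 1000 ppm GL leaves. NdhT rose under PSI-PI by 0.60, 0.76, 1.17 and 0.74 at 0, 100, 400 and 1000 ppm (adjusted p = 0.0153, 0.0018, 2.21e-06 and 0.00158), and the call at 0 ppm was lost without 0 ppm PSI-PI replicate 1 or 0 ppm GL replicate 1 (adjusted p = 0.0618 to 0.0828). Against 400 ppm, NdhT rose at 100 ppm by 0.49 ± 0.15 (SE, adjusted p = 0.019) in PSI-PI leaves, lost without 400 ppm PSI-PI replicate 1 (adjusted p = 0.0684) and with quantile normalization (0.40, adjusted p = 0.0579), and by 0.90 ± 0.15 (SE, adjusted p = 4.52e-05) in GL leaves.

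The 8 assembly factors, CRR1 (AT5G52100), CRR6 (AT2G47910), CRR7 (AT5G39210), CRR41 (AT1G51100), CRR42 (AT5G20935), CRR3 (AT2G01590), NDF5 (AT1G55370) and PAM68L (AT5G52780), help to build the complex, and several of them act on subcomplex A in the stroma. All 8 rose at 400 ppm under PSI-PI, with a median of 0.97, and 5 of 8 at 0 ppm, 5 at 100 ppm and 5 at 1000 ppm. CRR7 had 2025, 1472, 1499 and 1834 normalized counts in the 0 ppm PSI-PI leaves, against 778, 1372, 1298 and 1115 in the 0 ppm GL leaves. It had 2032, 1803, 1843 and 1780.5 normalized counts in the 100 ppm PSI-PI leaves, against 1569.5, 1217, 1096 and 1247 in the 100 ppm GL leaves. The GL leaves at these levels were above the GL leaves at 400 ppm. CRR7 had 1832, 1889, 1969 and 1855 normalized counts in the 400 ppm PSI-PI leaves, against 654, 714, 645 and 747 in the 400 ppm GL leaves. CRR7 at 1000 ppm had 992, 1162, 1286 and 1276 normalized counts in the 1000 ppm PSI-PI leaves, against 816, 599, 539 and 493 in the 1000 ppm GL leaves. The PSI-PI leaves were above all GL leaves at each level. CRR7 rose under PSI-PI by 0.60 ± 0.15 (SE, adjusted p = 0.0152) at 0 ppm, a call lost without 0 ppm GL replicate 1 (adjusted p = 0.0908), by 0.55 ± 0.15 (SE, adjusted p = 0.0193) at 100 ppm, a call lost without 100 ppm PSI-PI replicate 1 or 100 ppm GL replicate 2 or 3 (adjusted p = 0.0531 to 0.0706) and with quantile normalization (adjusted p = 0.0846), by 1.45 ± 0.15 (SE, adjusted p = 1.09e-07) at 400 ppm and by 0.96 ± 0.15 (SE, adjusted p = 8.58e-05) at 1000 ppm. Against 400 ppm GL it rose at 0 ppm (0.69 ± 0.15 SE, adjusted p = 9.21e-04) and 100 ppm GL (0.88 ± 0.15 SE, adjusted p = 5.51e-05). In PSI-PI leaves it fell at 1000 ppm (-0.69 ± 0.15 SE, adjusted p = 0.0249), a call lost without 1000 ppm PSI-PI replicate 1, 2 or 3 or 400 ppm PSI-PI replicate 1, 3 or 4 (adjusted p = 0.0646 to 0.101).

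CRR4, the editing factor that creates the start codon of the plastid ndhD transcript, was the least abundant of the 31 genes. CRR4 had 81.3, 66.7, 82 and 109 normalized counts in the 0 ppm PSI-PI leaves, against 42.9, 67.2, 68.8 and 51.5 in the 0 ppm GL leaves. It had 154, 160.3, 168 and 169 normalized counts in the 100 ppm PSI-PI leaves, against 102, 68.3, 88.8 and 106 in the 100 ppm GL leaves. The lights overlapped at 0 ppm and were apart at 100 ppm. CRR4 had 118, 122, 159.8 and 170.2 normalized counts in the 400 ppm PSI-PI leaves, against 63.6, 81.6, 54.9 and 75.9 in the 400 ppm GL leaves. At 1000 ppm it had 90.8, 94.7, 113 and 101 normalized counts in the 1000 ppm PSI-PI leaves, against 69.9, 77.3, 48.9 and 45.4 in the 1000 ppm GL leaves. CRR4 rose under PSI-PI by 0.84 ± 0.19 (SE, adjusted p = 0.00528) at 100 ppm, 1.03 ± 0.19 (SE, adjusted p = 2.19e-04) at 400 ppm and 0.75 ± 0.19 (SE, adjusted p = 0.011) at 1000 ppm, the last of which was lost without 1000 ppm GL replicate 3 or 4 (adjusted p = 0.0507 to 0.0544) and in a fit of its own leaves (adjusted p = 0.0631), and its difference at 0 ppm was 0.55 ± 0.19 (SE, adjusted p = 0.0781). Against 400 ppm it fell at 0 ppm in PSI-PI leaves by 0.75 (adjusted p = 0.0082), with -0.27 ± 0.19 (SE, adjusted p = 0.299) in GL leaves. The PSI-PI fall was lost in a fit of that contrast's own leaves (adjusted p = 0.0858).

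**Figure D2:**
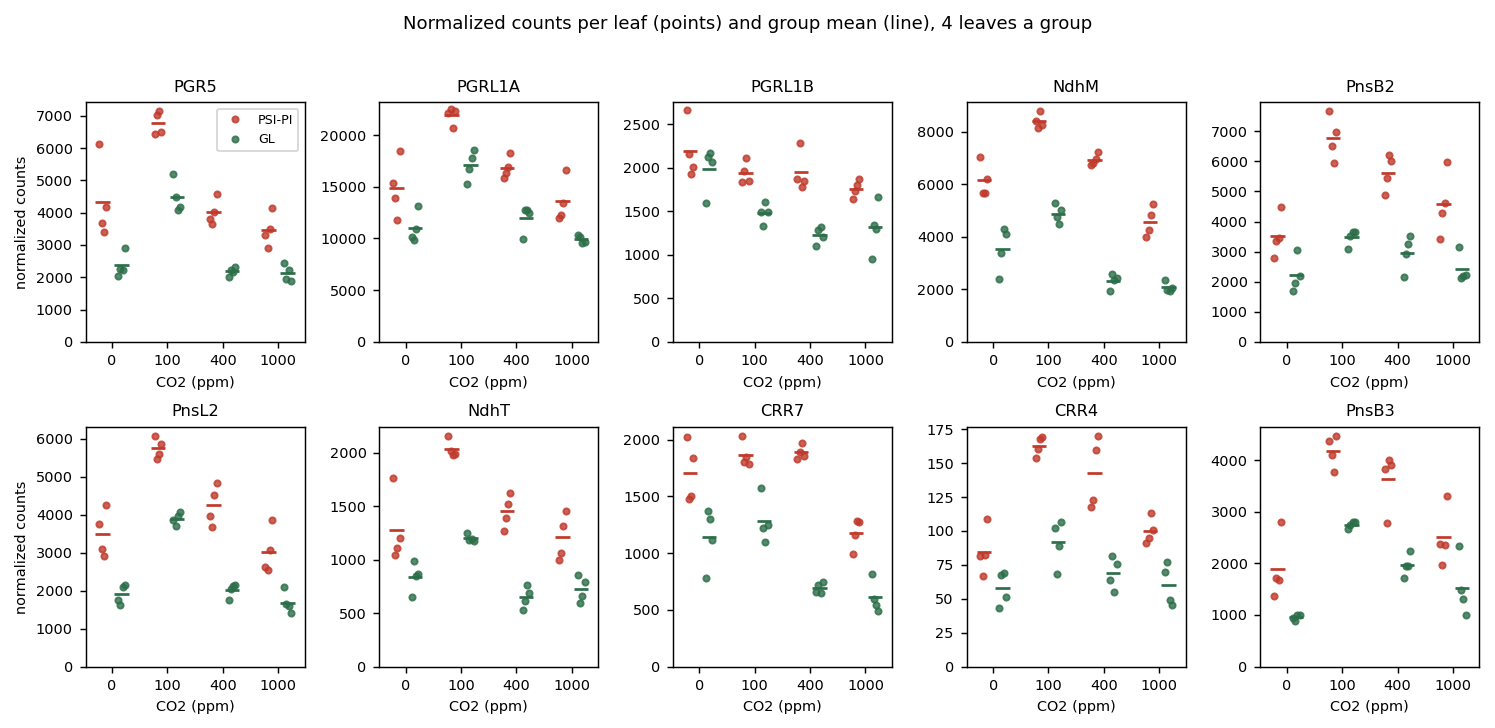
Normalized counts (y axis, linear, from 0) in each leaf at 0, 100, 400 and 1000 ppm CO2 (x axis) for 10 of the 31 genes. Points are single leaves, 4 a group, PSI-PI on the left and GL on the right of each CO2 level, and the line is the group mean. PGR5 and NdhM PSI-PI leaves lie above all GL leaves at each level, and the PnsB3 GL leaves have their lowest mean at 0 ppm, with values between 878 and 1007.

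The comparisons with 400 ppm asked how the same genes respond to the CO2 supply. At 100 ppm 7 of 31 rose in PSI-PI leaves (background 11.2%) and 21 in GL leaves (background 17.4%), with medians of 0.21 and 0.54. None was called lower, also none at an unadjusted p under 0.05, against 11.4% and 17.1% of all genes. In GL leaves 26 genes had all 4 leaves at 100 ppm above all 4 at 400 ppm, where 20.3% of all genes did. The calls in GL covered all 4 genes of subcomplex A, 3 of 5 of subcomplex B, 3 of 5 lumenal subunits, all 4 of the ferredoxin-binding side, 5 of 8 assembly factors, PGR5 and PGRL1A, and neither RNA factor. PnsL2, NdhS, NdhT, NdhV, CRR42, PGR5 and PGRL1A rose in both lights. NdhS, for example, rose by 0.59 ± 0.10 (SE, adjusted p = 6.98e-05) in PSI-PI leaves and 0.82 ± 0.10 (SE, adjusted p = 2.33e-07) in GL leaves, and CRR42 by 0.55 ± 0.14 (SE, adjusted p = 0.00517) and 1.05 ± 0.14 (SE, adjusted p = 1.53e-06). In PSI-PI leaves, 4 genes were called without 400 ppm PSI-PI replicate 1, and quantile normalization called 3. Of the markers, LHCB3 was higher in all 100 ppm leaves, by 1.44 ± 0.29 (SE, adjusted p = 9.23e-04) in PSI-PI and 0.59 ± 0.29 (SE, adjusted p = 0.122) in GL leaves, while the mesophyll sums overlapped (693934 to 1037145, against 455129 to 731930.5, in PSI-PI and 532847 to 667099.6, against 479081 to 575016, in GL). The phloem sum was higher in every 100 ppm PSI-PI leaf (4339.9 to 4774.9, against 3332.2 to 3664.3), where SUC2 rose (0.44 ± 0.14 SE, adjusted p = 0.0266), and overlapped in GL leaves (3660.4 to 4335.3, against 3801.7 to 4125.6), where APL rose (0.35 ± 0.14 SE, adjusted p = 0.0451). The guard cell sum was lower in every 100 ppm GL leaf (287.5 to 375.6, against 390.3 to 461.4) and overlapped in PSI-PI leaves (290.4 to 367.4, against 334.4 to 431.6). Their part in the result was not tested.

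At 0 ppm some of the genes rose and others fell. In GL leaves 5 rose and 6 fell (background 17.2% and 16.6%), so that the share of calls among the 31 was close to that of all genes. Those that rose were NdhM, the ferredoxin-binding NdhS (0.33 ± 0.10 SE, adjusted p = 0.00821), the assembly factors CRR7 and CRR42 (0.61 ± 0.14 SE, adjusted p = 0.00116), and PGRL1B. Those that fell were PnsB3, PnsB5 (-0.50 ± 0.20 SE, adjusted p = 0.0462), PnsL1 (-0.53 ± 0.16 SE, adjusted p = 0.0109), PnsL4 (-0.45 ± 0.14 SE, adjusted p = 0.0145), PnsL5 and CRR3 (-0.56 ± 0.20 SE, adjusted p = 0.0297). In GL leaves 6 genes had all 4 leaves at 0 ppm below those at 400 ppm, and 15.7% of all genes did. All 10 subunits of subcomplex B and the lumenal subcomplex had negative estimates at 0 ppm in both lights. The share of all genes with a negative estimate is not given here. Per-leaf medians in 0 ppm GL leaves, relative to the 400 ppm GL mean, were -0.61 to -0.29 for subcomplex B and -0.66 to -0.28 for the lumenal subcomplex. They were also negative for nuclear subunits of PSI (-1.02 to -0.55), photosystem II (-0.98 to -0.47) and cytochrome b6f, plastocyanin and ATP synthase (-0.90 to -0.39). In PSI-PI leaves 12 of 31 fell (background 11.0%) and none rose, also none at an unadjusted p under 0.05 (background 9.99%). The 12 were NdhL, NdhN, NdhO, PnsB1, PnsB2, PnsB3, PnsL1, PnsL3, PnsL4, PnsL5, CRR41 and CRR4, with log2 fold changes of -0.98 to -0.43. PnsB3, PnsL1, PnsL4 and PnsL5 fell in both lights. The PSI-PI count was 6 without 400 ppm PSI-PI replicate 3 and 7 without 0 ppm PSI-PI replicate 2, and in a fit of the 8 leaves of this contrast alone none of the 31 and 457 of all genes passed. The summed mesophyll markers were lower at 0 ppm in all GL leaves (129099 to 227588, against 479081 to 575016 at 400 ppm) and overlapped in PSI-PI leaves (203578 to 468175, against 455129 to 731930.5). RBCS1A and CA1 fell in both lights, with log2 fold changes of -1.01 ± 0.33 (SE, adjusted p = 0.0297) and -1.85 ± 0.45 (SE, adjusted p = 0.00535) in PSI-PI and -1.24 ± 0.33 (SE, adjusted p = 0.00461) and -2.39 ± 0.45 (SE, adjusted p = 1.99e-04) in GL leaves, and LHCB3 fell in GL leaves (-2.11 ± 0.29 SE, adjusted p = 8.84e-06), with -0.44 ± 0.29 (SE, adjusted p = 0.291) in PSI-PI leaves. The guard cell and phloem sums overlapped in both lights, although HT1 and SUC2 fell in GL leaves (-0.72 ± 0.25 SE, adjusted p = 0.0244 and -0.42 ± 0.14 SE, adjusted p = 0.0238). The part of these markers in the result was not tested.

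At 1000 ppm none of the 31 genes passed the limma test in GL leaves, where 0.177% of all genes were called higher and 0.200% lower. At an unadjusted p under 0.05 there were 8 of the 31. The share of all genes at that unadjusted threshold is not given here. The log2 fold changes were -0.64 (PnsB5) to 0.24 (CRR2), with a median of -0.21, and 3 genes were called without 1000 ppm GL replicate 1. In PSI-PI leaves 7 fell and none rose, also none at an unadjusted p under 0.05 (background 1.01% and 0.671%). These were NdhM, NdhN (-0.56 ± 0.15 SE, adjusted p = 0.0428), PnsB5 (-0.80 ± 0.20 SE, adjusted p = 0.0349), NdhU (-0.47 ± 0.12 SE, adjusted p = 0.0398), CRR6 (-0.68 ± 0.16 SE, adjusted p = 0.0309), CRR7 and PAM68L (-0.55 ± 0.15 SE, adjusted p = 0.05). The count was 0 when any of 400 ppm PSI-PI replicates 1, 3 and 4 or 1000 ppm PSI-PI replicates 1, 2 and 3 was left out, 9 without 400 ppm PSI-PI replicate 2 and 11 without 1000 ppm PSI-PI replicate 4. The guard cell sum was higher in every 1000 ppm leaf, with 600.2 to 744.7 against 334.4 to 431.6 in PSI-PI leaves and 581.9 to 782.5 against 390.3 to 461.4 in GL leaves. KAT1 rose in PSI-PI leaves (1.18 ± 0.23 SE, adjusted p = 0.0109) and MYB60 in GL leaves (0.80 ± 0.16 SE, adjusted p = 0.0198). LHCB3 was lower in all 1000 ppm GL leaves (-0.96 ± 0.29 SE, adjusted p = 0.178), the phloem sums overlapped in both lights, and the part of these markers in the result was not tested. The summed mesophyll markers overlapped between 1000 and 400 ppm in both lights (364612 to 672243, against 455129 to 731930.5, in PSI-PI and 212171 to 517201, against 479081 to 575016, in GL).

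Whether the response to PSI-PI itself differed with CO2 was tested as the PSI-PI minus GL difference at a level minus that at 400 ppm. At 0 ppm 2 genes passed, both with a smaller response than at 400 ppm (background 1.90% lower and 1.09% higher): NdhM with -0.75 ± 0.19 (SE, adjusted p = 0.0235) and CRR7 with -0.85 ± 0.21 (SE, adjusted p = 0.0248). For both, the PSI-PI leaves at 0 and 400 ppm overlapped, and the GL means were higher at 0 ppm (3543, against 2337 at 400 ppm, for NdhM, and 1141, against 690.2, for CRR7). No gene of the 31 passed in the other direction, also none at an unadjusted p under 0.05, and 9 had an unadjusted p under 0.05 with a smaller response. The background shares are for adjusted calls, and the share of all genes at the unadjusted threshold is not given here. The count was 0 without 0 ppm GL replicate 3 or 0 ppm PSI-PI replicate 2 and in the fit of the 16 leaves of this contrast alone, where 304 of all genes passed. It was 1 without 0 ppm PSI-PI replicate 3, 400 ppm PSI-PI replicate 3, 0 ppm GL replicate 2 or 4, or 400 ppm GL replicate 1 or 3, and 5, 4 and 3 without 0 ppm GL replicate 1, 0 ppm PSI-PI replicate 4 and 0 ppm PSI-PI replicate 1.

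At 100 ppm no gene of the 31 passed the limma test of the difference (background 0.00466% higher and 0.0419% lower), 9 had an unadjusted p under 0.05, and the estimates ran from -0.90 (CRR7) to 0.02 (PnsB2). At 1000 ppm none of the 31 passed and 4 had an unadjusted p under 0.05, with 0% of all genes called higher and 0% lower. At both levels the background shares are for adjusted calls, and those at the unadjusted threshold are not given here. PGR5 had differences of -0.02, -0.27 and -0.17 at 0, 100 and 1000 ppm, with 95% intervals of -0.43 to 0.39, -0.68 to 0.14 and -0.58 to 0.24, so a difference within these bounds was not excluded. The estimates were negative for 25, 29 and 30 of the 31 genes at 0, 100 and 1000 ppm. These differences share the leaves at 400 ppm, the level with the largest median PSI-PI response of the 31. The share of all genes with a negative estimate is not given here, so these counts are not read as a trait of the 31.

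**Figure D3:**
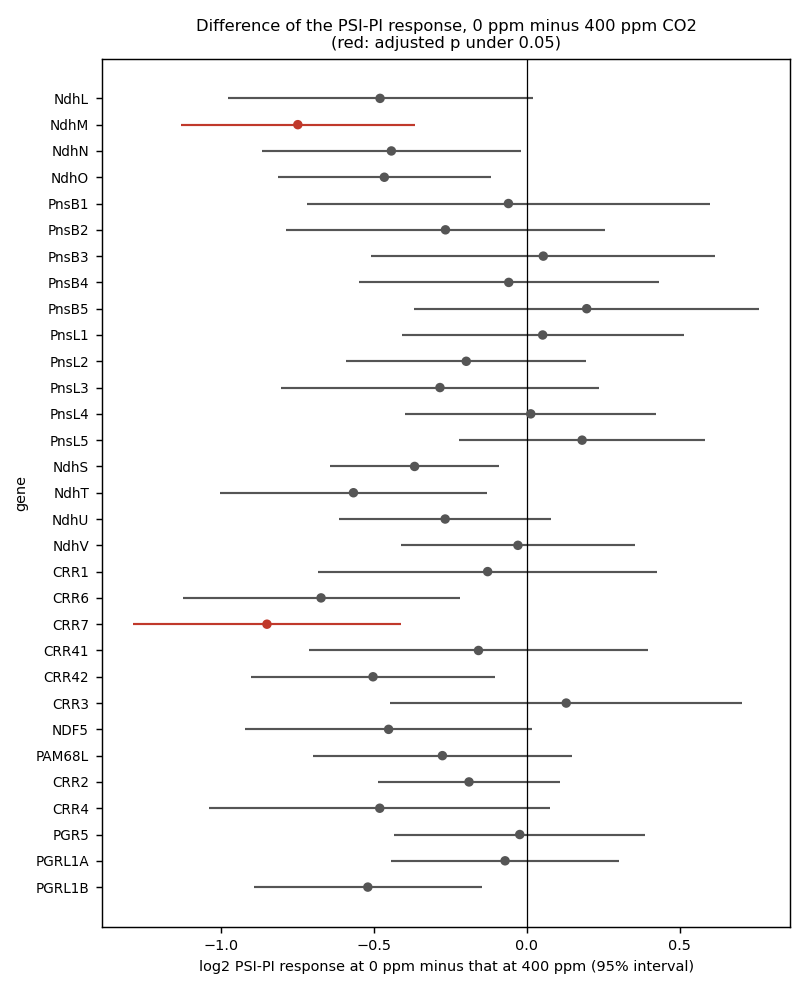
Difference between the PSI-PI response at 0 ppm and that at 400 ppm CO2 (x axis, log2) for each of the 31 genes (y axis), with 95% intervals from the model of all leaves. NdhM (-0.75) and CRR7 (-0.85), in red, have an adjusted p under 0.05, and the intervals of most other genes cross 0.

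Other genes of the pathway were listed by role. Of 10 further genes of cyclic flow or its partners, 9 rose under PSI-PI in the average (background 18.8%). None fell, also none at an unadjusted p under 0.05 (background 17.8% called lower). At 0, 100, 400 and 1000 ppm 8, 4, 9 and 6 rose (background 4.51%, 6.64%, 13.8% and 6.89%). These further genes included members named below by their values. The 9 that rose in the average included PQL3, a PsbQ-like protein related to PnsL2 and PnsL3 (1.27 ± 0.16 SE, adjusted p = 2.53e-07), the leaf ferredoxins FD2 (1.15 ± 0.13 SE, adjusted p = 8.60e-08) and FD1 (0.81 ± 0.11 SE, adjusted p = 1.08e-06), LHCA6, which links NDH to PSI (1.09 ± 0.10 SE, adjusted p = 3.48e-09), and PGRL2 (0.72 ± 0.06 SE, adjusted p = 3.67e-10). The exception was FD3, the root-type ferredoxin (-0.12 ± 0.07 SE, adjusted p = 0.23). Against 400 ppm, LHCA6 had the largest fall of the 10 at 0 ppm, by 0.90 in PSI-PI leaves (adjusted p = 0.0042) and 1.09 in GL leaves (adjusted p = 2.75e-04), while the terminal oxidase PTOX rose by 0.39 ± 0.10 (SE, adjusted p = 0.00933) and 0.66 ± 0.10 (SE, adjusted p = 3.09e-05). Of 6 editing factors for plastid ndh transcripts, 5 rose under PSI-PI in the average (background 18.8%), CRR21 most (0.89 ± 0.12 SE, adjusted p = 4.87e-07). CRR21 also had the largest fall of the 6 at 0 ppm (-1.08 ± 0.23 SE, adjusted p = 0.00229 in PSI-PI and -0.66 ± 0.23 SE, adjusted p = 0.0265 in GL leaves), where 5 and 3 of 6 fell (background 11.0% and 16.6%).

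The plastid-encoded ndh genes, of which 11 were among the rows tested, had a median response to PSI-PI of 0.20 on the log2 scale. In the average 5 of 11 rose (background 18.8%). At single CO2 levels 3 rose at 400 ppm (background 13.8%) and none at 0, 100 or 1000 ppm. At an unadjusted p under 0.05 (limma), 3, 0 and 1 were higher and 1, 1 and 0 lower at 0, 100 and 1000 ppm. The share of all genes at that unadjusted threshold is not given here. ndhI had the largest called rise in the average (0.42 ± 0.15 SE, adjusted p = 0.0241). At 0 ppm against 400 ppm, 4 of 11 fell in PSI-PI leaves (background 11.0%) and 5 in GL leaves (background 16.6%), ndhB most (-1.23 ± 0.27 SE, adjusted p = 0.00303 and -1.26 ± 0.27 SE, adjusted p = 8.51e-04), whereas ndhF rose in GL leaves (0.70 ± 0.21 SE, adjusted p = 0.0104). How far library preparation captured plastid transcripts is not given in the sources used here.

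Nuclear subunits of the complexes that carry linear flow, taken from the gene list the study compiled for its own figures, were set beside these counts. In the average 18.8% of all genes were called higher and 17.8% lower. Of 12 PSI subunits, 1 rose (PSAN, 0.39 ± 0.12 SE, adjusted p = 0.012) and 3 fell in the average (PSAD1, PSAH2 and PSAD2, the largest at -0.44 ± 0.10 SE, adjusted p = 6.98e-04), with a median of -0.07. Of 10 photosystem II subunits 2 rose and none fell, also none at an unadjusted p under 0.05 (median 0.11), and of 8 subunits of cytochrome b6f and ATP synthase with plastocyanin 5 rose and 1 fell (median 0.32). At 400 ppm, the per-leaf median of the 12 PSI subunits, taken relative to the mean of the 400 ppm GL leaves, was -0.77 to -0.03 in PSI-PI leaves and -0.10 to 0.15 in GL leaves, against 0.65 to 0.97 and -0.18 to 0.10 for the 18 NDH subunits and 0.54 to 0.74 and -0.15 to 0.10 for the PGR5 route. It was -0.52 to 0.15 and -0.09 to 0.07 for photosystem II and -0.04 to 0.34 and -0.01 to 0.02 for cytochrome b6f, plastocyanin and ATP synthase. For PSI subunits the lights overlapped at 400 ppm and at every other level. The PSI ranges in PSI-PI and GL leaves were -0.87 to -0.32 and -1.02 to -0.55 at 0 ppm. They were 0.42 to 0.65 and 0.46 to 0.79 at 100 ppm, and -0.86 to -0.36 and -0.72 to -0.03 at 1000 ppm. In response to CO2, at 100 ppm 11 of 12 PSI subunits rose in PSI-PI and 8 in GL leaves (background 11.2% and 17.4%). At 0 ppm 1 of 12 fell in PSI-PI leaves and 12 in GL leaves (background 11.0% and 16.6%). The difference between the lists was not tested.

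**Figure D4:**
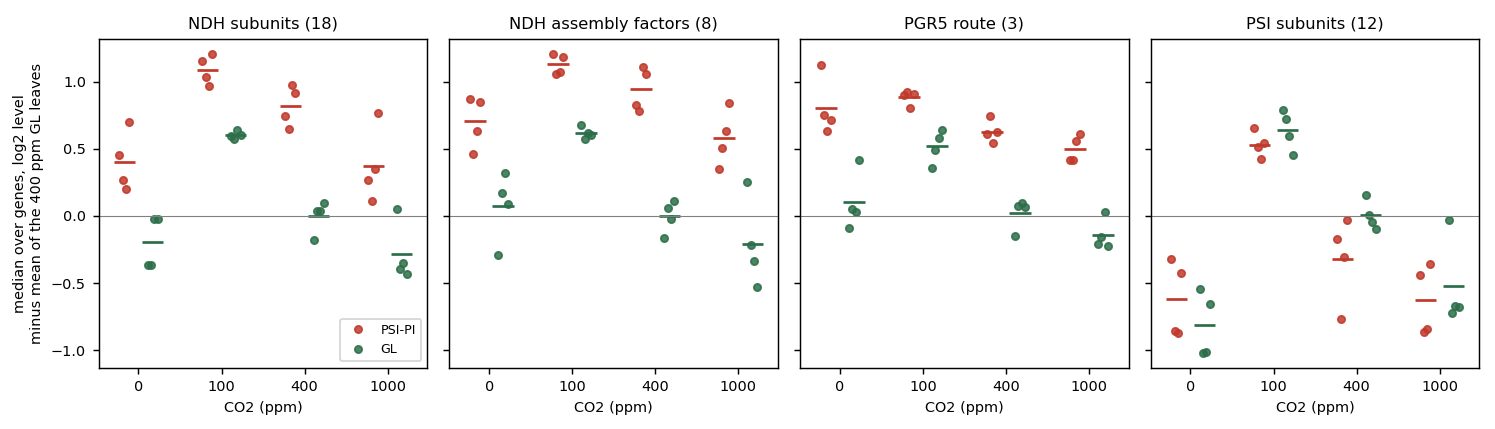
Median over the genes of 4 groups of the log2 level in each leaf, relative to the mean of the 400 ppm GL leaves (y axis), at 0, 100, 400 and 1000 ppm CO2 (x axis). Points are single leaves, PSI-PI left and GL right of each level, and lines are group means. For NDH subunits the 400 ppm PSI-PI leaves sit at 0.65 to 0.97, above all 400 ppm GL leaves, while those of PSI subunits sit at -0.77 to -0.03. For PSI subunits the PSI-PI and GL leaves overlap at every CO2 level.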

How the data were processed

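RNA-seq libraries of 32 leaf samples were quantified by the authors with Salmon v0.12 on TAIR10 transcripts, summed to genes and normalized with DESeq2. The deposited signal values are these normalized counts per gene, and since they are not whole numbers no count model was fitted and the reads behind a value are unknown. The deposited table of the authors' own fold changes and p-values was not used. Values were tested as log2(value + 1) with limma 3.58.1 in R 4.3.3 (lmFit, then eBayes with a variance trend), in 1 model of 8 group means over the 21469 genes with a total of at least 10 normalized counts. P-values were adjusted by Benjamini-Hochberg over all these genes, and a gene was called at an adjusted p under 0.05 with no minimum fold. Fold changes are on the log2(value + 1) scale, and intervals are 95%. P-values and SEs rest on a single spread per gene, that between leaf samples within groups, pooled over all 8 groups. They do not measure the spread of the compared groups alone. The median SD of the genes described here was lowest in 100 ppm PSI-PI leaves (0.094) and highest in 1000 ppm GL leaves (0.305). Where the compared groups spread more than the pooled value, the SE and p-value are too small, and where they spread less, too large. The script was tested on simulated data.

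The 31 members and the lists were chosen with earlier results of these data known. Values in every leaf are given for PGR5, PGRL1A and PGRL1B, for the gene of each other structural group with the smallest adjusted p in the averaged PSI-PI contrast, for the genes with the largest and smallest fold change, and for genes called in an interaction. Of the other pathway genes, values are given for the called ones with the largest rise and fall, and the further ones named were chosen after their values were seen. Guard cell markers (KAT1, MYB60, HT1) had 29.65 to 412.2 and phloem markers (SUC2, APL) 210.6 to 4413.7 normalized counts. Alternatives were another pseudocount, filter, normalization, variance model, fit, fold minimum, a replicate block and each leaf left out.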

Additional observations from a re-analysis of the deposited data

Results flagged for a closer look

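Of 248 groups of 4 leaves tested (31 genes in 8 groups), 16 held a leaf far from the others by Dixon's criterion, which flags about 1 in 20 by chance. In 0 ppm PSI-PI replicate 4, PnsL4 had 2140.5 normalized counts against 1504.8 to 1554.9, and PnsL5 had 1979.3 normalized counts against 1377.8 to 1444.8 in the other 3 leaves. In 0 ppm GL replicate 1, PnsL3 had 468.4 normalized counts against 827.5 to 889.6, and PGRL1B had 1593.4 normalized counts against 2066.8 to 2170.7 in the other 3 leaves. In 0 ppm GL replicate 2, PnsB1 had 2430.9 normalized counts against 4823.7 to 5112.9 in the other 3 leaves. In 0 ppm GL replicate 3, PnsL5 had 1492.5 normalized counts against 1260.2 to 1295.1 in the other 3 leaves. In 100 ppm PSI-PI replicate 2, PAM68L had 3953.7 normalized counts against 3451.0 to 3473.8 in the other 3 leaves. In 100 ppm PSI-PI replicate 4, PnsL1 had 7291.7 normalized counts against 5804.9 to 5972.5 in the other 3 leaves. In 400 ppm PSI-PI replicate 2, PnsB3 had 2783.0 normalized counts against 3829.1 to 4006.2 in the other 3 leaves. In 400 ppm GL replicate 1, NdhU had 1868.4 normalized counts against 2148.9 to 2187.0, and PGRL1A had 9899.7 normalized counts against 12461.0 to 12762.7 in the other 3 leaves. In 1000 ppm PSI-PI replicate 1, CRR6 had 780.9 normalized counts against 1015.9 to 1047.5 in the other 3 leaves. In 1000 ppm PSI-PI replicate 4, PnsL5 had 2235.5 normalized counts against 1724.6 to 1735.6 in the other 3 leaves. In 1000 ppm GL replicate 1, PnsB2 had 3147.8 normalized counts against 2136.1 to 2226.1, and PnsB4 had 2568.2 normalized counts against 2079.6 to 2104.7, and PnsB5 had 2165.5 normalized counts against 1335.1 to 1371.0 in the other 3 leaves. The response to PSI-PI was smaller at 0 ppm than at 400 ppm for NdhM (difference -0.75 ± 0.19 SE on the log2 scale, adjusted p = 0.0235, limma) and for CRR7 (-0.85 ± 0.21 SE, adjusted p = 0.0248, limma), by the test of the difference itself. Without single leaves the estimates stayed negative, at -0.93 to -0.64 for NdhM and -1.02 to -0.75 for CRR7, and each missed the threshold without some leaves (4 of 16 for NdhM and 6 of 16 for CRR7).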

How the results depend on the processing

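Counts are of the 31 genes called. With pseudocounts of 0.5 or 5, no filter, or a filter of at least 10 in at least 4 samples, all 14 counts stayed within 1.5 times, and the 68 named fold changes kept their direction and side of the threshold, as they did as log2 ratios of group means for direction. Quantile normalization gave 3 at 100 ppm PSI-PI and 4 at 1000 ppm PSI-PI against 400 ppm PSI-PI, 10 for PSI-PI against GL at 100 ppm and 1 for the 100 ppm interaction, and 13 named fold changes missed the threshold. Without the variance trend, 1000 ppm PSI-PI against 400 ppm PSI-PI gave 4. Fits of only a contrast's leaves, which estimate the spread from those leaves alone, gave 0, 11 and 4 for 0, 100 and 1000 ppm PSI-PI against 400 ppm PSI-PI, 0 and 10 for PSI-PI against GL at 0 and 1000 ppm, and 0 and 4 for the 0 and 100 ppm interactions. Such fits also called more genes than the model of all leaves for PSI-PI against GL at 100 and 400 ppm (23 and 29) and for 100 against 400 ppm GL (26). With a log2 fold change of at least 1 as well, the counts against 400 ppm were 1 and 3 at 0 and 100 ppm GL and 0, 0 and 0 at 0, 100 and 1000 ppm PSI-PI, those for PSI-PI against GL were 1, 0, 10, 1 and 2 at 0, 100, 400 and 1000 ppm and in the average, and the 0 ppm interaction had 0. The causes were not tested. No result reversed.

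With each leaf left out, counts against 400 ppm ran from 8 to 12, 18 to 21 and 0 to 3 at 0, 100 and 1000 ppm GL and from 6 to 17, 4 to 7 and 0 to 11 in PSI-PI. For PSI-PI against GL they ran from 12 to 21, 12 to 15, 27 to 29 and 16 to 26 at 0, 100, 400 and 1000 ppm and stayed at 29 in the average. The 0 ppm interaction ran from 0 to 5. With a replicate block, 13, 21 and 0 genes were called at 0, 100 and 1000 ppm GL, 12, 7 and 9 in PSI-PI, and 21, 19, 28 and 24 for PSI-PI against GL, and 1 named call was lost (PnsB3 at 100 ppm GL, 0.49, adjusted p = 0.0502). The correlation of same-numbered leaves' deviations was -0.505 to 0.283. It exceeded 0.1 in 3 of 4 pairs for 1000 against 400 ppm PSI-PI and in at most 2 of 4 in the other contrasts, so in none were all 4 pairs over 0.1, and the numbers were not treated as pairs.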
